A study of Mus musculus with 13 samples.

Results

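The expression of 10 genes that write, maintain, protect or remove DNA methylation was followed in mouse oocytes after γ-irradiation. The genes were chosen by name and function, with earlier results of these data known, and no measured value was a criterion. They are Dnmt1, Dnmt3a, Dnmt3b, Dnmt3l, Uhrf1, Tet1, Tet2, Tet3, Dppa3 and Kdm1b, out of 49585 annotated genes summed from the deposited transcripts. All 10 passed the filter on low counts in each comparison. RNA came from oocytes of cultured ovaries of P5 CD-1 mice, taken at 0 h or at 1, 2.5, 4 or 6 h after irradiation from a caesium source. Several ovaries were pooled for each time point. The paper describes 0 h as before irradiation. A 0 h library is named here by the dose of its series. At 0.5 Gy there were 8 libraries, with 2 libraries each at 0, 1 and 4 h and 1 library each at 2.5 and 6 h. At 0.2 Gy there were 5 libraries, 1 at each time point. The sample labels call replicate 1 of 0.5 Gy the first generation, replicate 2 and the single libraries of 0.5 Gy the second generation, and the 0.2 Gy libraries the third generation. What a generation is, and whether it was a batch, is not given there. After 0 h the lower dose and the third generation cannot be told apart, and at 0 h no library had received a dose. The labels also do not say that the libraries came from separate cultures, so p-values measure only the spread between these libraries.

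As background, mammalian oocytes enter their growth phase with a genome that has lost nearly all of its DNA methylation, and they gain it while they grow. The de novo methyltransferase Dnmt3a, with its cofactor Dnmt3l, lays down these marks, and the histone demethylase Kdm1b is needed at many imprinted loci because H3K4 methylation repels Dnmt3l. Dnmt1 copies methylation after replication, guided by Uhrf1, which binds hemimethylated DNA, and Dppa3 (also called Stella) restrains Uhrf1 in oocytes and protects the maternal genome after fertilisation. The Tet enzymes oxidise 5-methylcytosine, and Tet3 is the member known for this role in the zygote.

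The libraries held from 15709549 estimated reads, in the second replicate of 0 h at 0.5 Gy, to 30430104, at 0 h of 0.2 Gy. At 0.2 Gy the 0 and 1 h libraries had 103132 and 103483 transcripts above 0, and the other 11 libraries had from 85144 to 95069. All 15 oocyte markers were at 1 TPM (a transcript level scaled for length and depth) or more in every library, with summed levels from 1486 to 2179 TPM. RNA of other ovarian cells was present as well. The 10 granulosa cell markers summed to between 681 and 1204 TPM, the 8 stroma markers to between 315 and 520 TPM and the 6 red blood cell markers to between 1356 and 8219 TPM, and none of these markers was at 0 in any library. The 10 proliferation markers summed to between 361 and 518 TPM, and Mki67 was between 2.98 and 9.05 TPM.

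Dppa3 stood far above the other 9 genes, and the genes for Dnmt3b and Dnmt3l were at the bottom. The median level over the 13 libraries was 1518 TPM for Dppa3, 35.8 TPM for Kdm1b, 33.7 TPM for Dnmt1, 33.01 TPM for Uhrf1 and 21.8 TPM for Dnmt3a. It was 9.34 TPM for Tet2, 8.08 TPM for Tet1, 2.88 TPM for Tet3, 1.66 TPM for Dnmt3b and 0.262 TPM for Dnmt3l. Dppa3 ranked 19 by median TPM among 20843 protein-coding genes with a median above 0, and 51.4% of those genes were below Dnmt3b. The steps from Dppa3 to Kdm1b, from Tet1 to Tet3 and from Tet3 to Dnmt3b had the higher gene above the lower one in each of the 13 libraries. Kdm1b was above Dnmt1 in 7 libraries, Dnmt1 above Uhrf1 in 6 and Tet2 above Tet1 in 9, so these neighbours were not separated by their spread in TPM over all transcripts. With TPM summed over protein-coding transcripts alone, the order of the middle group became Uhrf1, Kdm1b, Dnmt3a and Dnmt1, and Dnmt1 then had a median of 9.41 TPM. On that measure the highest Dnmt1 value, 13.1 TPM, was below the lowest Uhrf1 value, 26.7 TPM. In these bulk samples, fewer cells of a type and less RNA per cell cannot be told apart, and the part of each level that comes from granulosa or other cells was not tested.

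**Figure D1:**
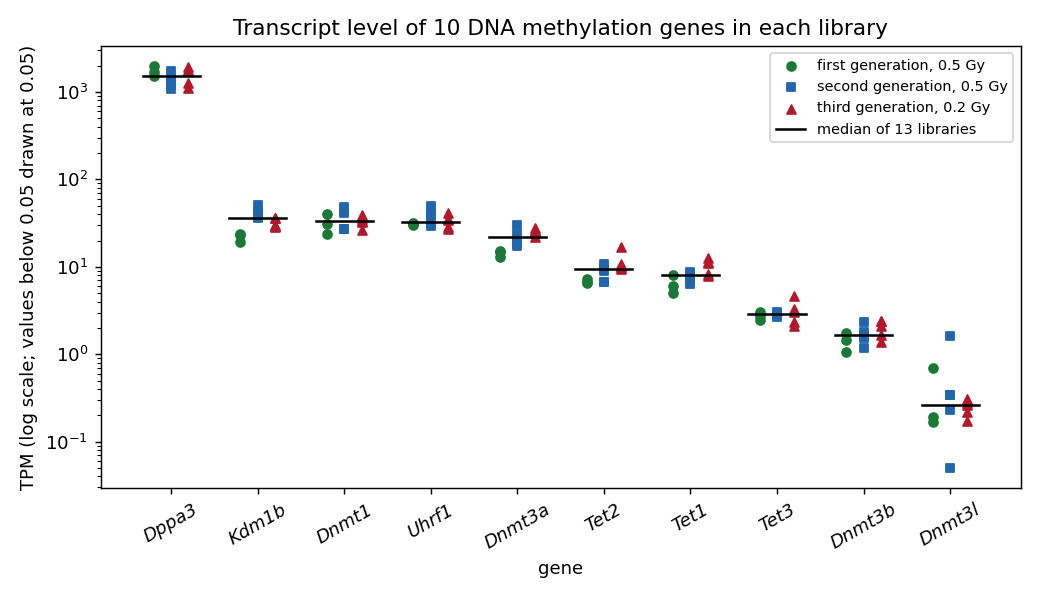
Level of each of the 10 genes in the 13 libraries, in TPM on a log axis, with genes in the order of their medians (black bars) and points marked by generation and dose. Dppa3 lies between 1095 and 1981 TPM. Dnmt3l has its lowest value, drawn at 0.05 TPM, in the 2.5 h library of 0.5 Gy. Its highest value, 1.61 TPM, is the second replicate of 1 h at 0.5 Gy. Of this, 1.00 TPM rests on 1 estimated read of Dnmt3l-204, a transcript of 210 bases.

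Dnmt1 is the maintenance methyltransferase, on chromosome 9 of GRCm38 (20907209 to 20959888, minus strand). In the first generation its level was 39.8, 23.5 and 30.98 TPM at 0, 1 and 4 h. In the second generation it was 41.0, 43.8, 27.3, 27.3 and 47.8 TPM over the 5 time points from 0 to 6 h. At 0.2 Gy it was 32.3, 26.5, 33.7, 35.7 and 38.8 TPM from 0 to 6 h. The replicates of 1 h lay near either end of the whole range of 23.5 to 47.8 TPM. Most of this TPM was on short noncoding transcripts. Dnmt1-205, a processed transcript of 607 bases, held 44.5% of the summed TPM and Dnmt1-204, a retained intron of 1252 bases, held 25.5%. By estimated counts their shares were 7.97% and 13.7%.

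The full-length transcripts of Dnmt1 begin at alternative first exons. Oocytes are known to use an upstream first exon and to make a shorter protein from a start codon further downstream. Dnmt1-202 begins at chr9:20959888, has its start codon at 20941454 and holds 4503 coding bases in the annotation, as described for the oocyte form. Dnmt1-201 begins at chr9:20952979, has its start codon at 20952787 and holds 4860 coding bases, which is the somatic form. The 250 bases before each of these starts are shown from RefSeq (GRCm38.p6, minus strand) because the reads divided between the pair, with every CG in capitals.
Dnmt1 oocyte start, chr9:20959889-20960138: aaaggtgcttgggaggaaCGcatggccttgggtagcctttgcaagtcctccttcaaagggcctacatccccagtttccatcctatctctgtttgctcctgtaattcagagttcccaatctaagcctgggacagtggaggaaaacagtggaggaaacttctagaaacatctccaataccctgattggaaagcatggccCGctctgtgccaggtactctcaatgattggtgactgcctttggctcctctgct
Dnmt1 somatic start, chr9:20952980-20953229: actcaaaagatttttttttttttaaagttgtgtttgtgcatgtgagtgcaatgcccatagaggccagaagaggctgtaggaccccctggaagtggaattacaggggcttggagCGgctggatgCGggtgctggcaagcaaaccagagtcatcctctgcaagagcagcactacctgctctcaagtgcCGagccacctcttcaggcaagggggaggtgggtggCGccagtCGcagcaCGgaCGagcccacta
The stretch before the oocyte start holds 2 CG and the one before the somatic start holds 7. The median was 6 over 32851 RefSeq promoter stretches of this length, and 81.2% and 46.3% of them hold at least as many. A further RefSeq start of Dnmt1 lies downstream of the somatic start, at chr9:20952623. The 250 bases before it overlap the first exon of Dnmt1-201 and hold 26 CG, a number that 9.59% of the stretches reach. CG was counted on one strand, since it reads the same on the other.

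Both forms were measured in every library. Dnmt1-202 was between 2.81 and 8.42 TPM, with a median of 5.68 TPM, and Dnmt1-201 was between 2.34 and 5.57 TPM, with a median of 3.91 TPM. The oocyte form was the higher of this full-length pair in 10 of 13 libraries. The pair does not hold all reads of the somatic first exon, since the noncoding Dnmt1-205 also begins inside it, at chr9:20952845. Dnmt1-205 was between 7.45 and 23.7 TPM. Its median was 408 estimated reads, where that of Dnmt1-202 was 2160. Which first exon was used more in all was therefore not settled by the pair. The share of Dnmt1-202 in the pair was 51.9%, 42.4% and 59.2% in the first-generation libraries of 0, 1 and 4 h, and between 56.9% and 71.9% in the 5 second-generation libraries. In the third generation it was 40.1%, 65.6%, 50.5%, 47.8% and 74.7% from 0 to 6 h, so that the range of that generation spanned both others. The pair is told apart by 154 and 162 stretches of 30 bases, the read length, that no other annotated transcript holds. The summed granulosa markers were between 777 and 831 TPM in the first generation, 681 and 1204 TPM in the second and 841 and 1032 TPM in the third, and their part in the somatic form was not tested.

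Uhrf1, the partner that recruits Dnmt1, was between 27.4 and 49.4 TPM, and its transcript Uhrf1-204 held 87.0% of the summed TPM. Uhrf1-204 has no 30-base stretch of its own, so this share rests on the estimated division of reads. The lowest values of the gene, 28.3 and 27.4 TPM, were the 0 and 1 h libraries of 0.2 Gy, and its highest was the second replicate of 0 h at 0.5 Gy. Of the 30-base stretches of Uhrf1, 24.9% also occur in other genes, most of them in the pseudogene Gm5648, which was given 12 estimated reads in all against 108081 for Uhrf1.

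Dnmt3a, the main de novo enzyme of oocytes (chromosome 12, 3806007 to 3914443, plus strand), had 15.2, 13.1 and 14.7 TPM in the first generation. It had 30.1, 23.6, 18.5, 17.4 and 19.3 TPM in the second. At 0.2 Gy it had 24.1, 21.8, 26.5, 27.8 and 25.8 TPM from 0 to 6 h. The 3 first-generation libraries were the lowest of the 13 in TPM, and how many of all genes show this was not counted. In CPM the 0.5 Gy libraries of 2.5 and 6 h, at 139.9 and 138 CPM, were below those of 0 and 4 h of the first generation. On the CPM scale (reads scaled for depth, without regard to length) the gene was more even, from 133 to 178 CPM, a ratio of 1.34 between the highest and the lowest library and the smallest such ratio of the 9 genes with a read in every library. The wider TPM range goes with 2 short transcripts, Dnmt3a-210 and Dnmt3a-216, of 501 and 502 bases, which held 40.9% and 20.9% of the TPM but 4.67% and 2.40% of the estimated counts.

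The long and the short protein of Dnmt3a are also made from separate starts. The long form, Dnmt3a-201, begins at chr12:3807030 and holds 2724 coding bases. The short form, Dnmt3a-203, is known as Dnmt3a2 and as the main form of germ cells. It begins at chr12:3891744, inside the gene, and holds 2067 coding bases. The RefSeq stretches nearest before these starts (GRCm38.p6, plus strand) are shown because the balance of the forms differed between generations, again with CG in capitals.
Dnmt3a long form, chr12:3806730-3806979: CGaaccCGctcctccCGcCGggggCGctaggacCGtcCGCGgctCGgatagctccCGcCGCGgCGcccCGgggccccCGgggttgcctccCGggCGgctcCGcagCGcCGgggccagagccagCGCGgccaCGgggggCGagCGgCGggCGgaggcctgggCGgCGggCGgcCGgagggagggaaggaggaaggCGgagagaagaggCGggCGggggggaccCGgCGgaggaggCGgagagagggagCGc
Dnmt3a short form, chr12:3891494-3891743: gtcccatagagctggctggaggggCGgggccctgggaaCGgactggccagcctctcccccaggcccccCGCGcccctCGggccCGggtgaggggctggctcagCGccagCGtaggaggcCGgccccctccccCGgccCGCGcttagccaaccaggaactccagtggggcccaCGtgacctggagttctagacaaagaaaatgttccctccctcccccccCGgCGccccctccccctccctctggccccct
The first holds 38 CG, a number that 1.88% of all promoter stretches reach, and the other 15, which 27.3% reach. The first ends 50 bases before the annotated start of Dnmt3a-201, at another RefSeq start.

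The short form was 3.64, 3.84 and 4.34 TPM in the first-generation libraries of 0, 1 and 4 h, where the long form was 1.59, 1.78 and 2.09 TPM. In the second generation the short form was 3.49, 2.99, 3.98, 3.23 and 2.72 TPM from 0 to 6 h and the long form 4.48, 2.93, 2.31, 2.60 and 2.78 TPM. In the third generation the short form was 2.39, 0.981, 1.34, 2.06 and 2.04 TPM and the long form 3.74, 4.07, 4.55, 4.06 and 3.78 TPM. The short form's share of the pair was thus between 67.6% and 69.6% in the first generation, 43.8% and 63.3% in the second and 19.4% and 39.0% in the third, and these ranges did not overlap. Counted in estimated reads the shares were between 53.6% and 55.9%, 30.2% and 48.9%, and 11.8% and 26.1%. Of the 28 transcripts of these genes that held at least 10% of the TPM of a gene with a median of 100 reads or more, 1 transcript, Dnmt3a-203, had shares of its gene's TPM that did not overlap among the generations and followed one order. Over all 27097 such transcripts this held for 0.303%. The transcript was singled out after its values were seen. The short and the long form are told apart by only 27 and 55 unshared 30-base stretches, so the division of reads between them rests on salmon's estimate.

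**Figure D2:**
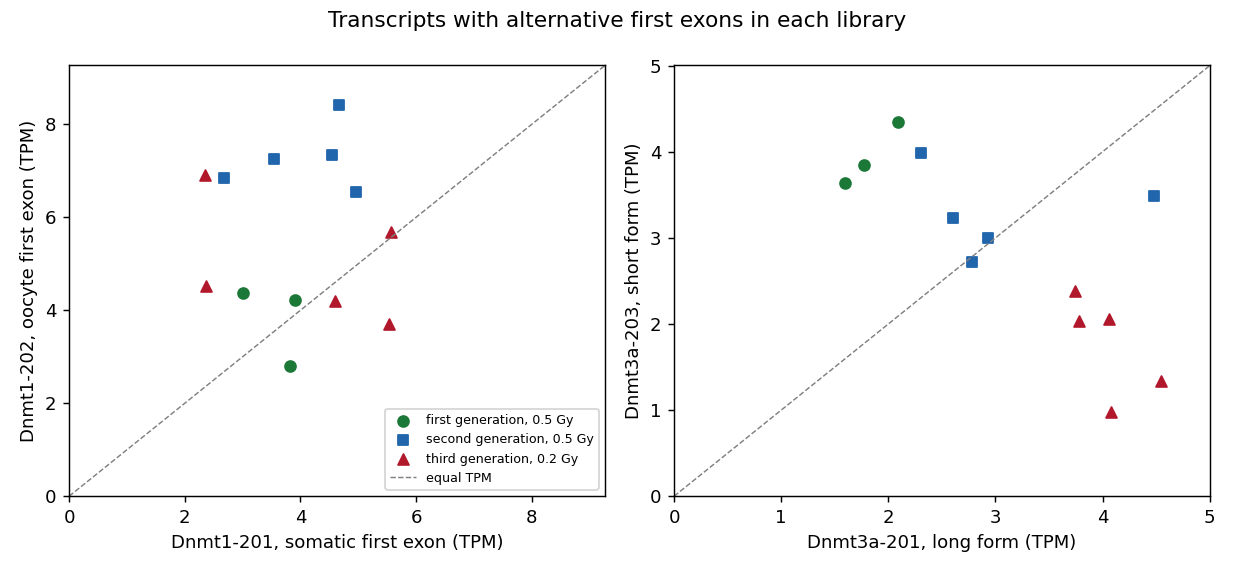
TPM of transcripts with alternative first exons in each library, for Dnmt1 (oocyte form on the vertical axis, somatic form on the horizontal axis) and Dnmt3a (short form on the vertical axis, long form on the horizontal axis), where the dashed line marks equal TPM. In the Dnmt3a panel the 3 first-generation libraries lie above the line and the 5 libraries of the third generation below it.

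Dnmt3b, the other de novo enzyme, was between 1.06 and 2.43 TPM, or 10.5 to 20.7 CPM. Its TPM was spread over 5 transcripts with between 11.7% and 19.2% each, of which 4 are coding forms with no 30-base stretch of their own, so their division was not read further. Dnmt3l was close to the limit of detection, with 88, 12 and 15 estimated reads in the first generation and 4, 43, 0, 39 and 30 in the second, in order of time. At 0.2 Gy it had 24, 12, 13, 9 and 28 estimated reads from 0 to 6 h. The replicates of 0 h therefore spanned the whole range of the libraries with a read. A count of 0 allows up to 3 reads, or 0.114 CPM in the 2.5 h library, by counting error alone, and the median of the other 12 libraries was at least 5.59-fold higher than that. The replicates of 0 h, at 3.55 and 0.264 CPM, lay on either side of the median of 0.636 CPM over the other 12 libraries.

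Dppa3 had 1518, 1981 and 1675 TPM in the first generation at 0, 1 and 4 h. It had 1348, 1443, 1747, 1214 and 1095 TPM in the second, from 0 to 6 h. At 0.2 Gy it had 1271, 1733, 1936, 1805 and 1099 TPM from 0 to 6 h. In both the second and the third generation the 2.5 h library had the highest level and the 6 h library the lowest of the 5. Each of these points is 1 library, and how many of all genes show this order was not counted. Its annotated transcripts, Dppa3-201 and Dppa3-202, held 55.1% and 44.9% of the TPM. Other genes, chiefly the pseudogene Dppa3-ps, hold 30.4% of its 30-base stretches. Dppa3-ps was given 30319 estimated reads against 909540 for Dppa3.

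Kdm1b, the H3K4 demethylase, had 19.2, 24.1 and 23.0 TPM in the first generation and 51.1, 36.6, 41.4, 38.3 and 38.7 TPM in the second. At 0.2 Gy it had 35.8, 28.4, 29.7, 35.8 and 29.0 TPM from 0 to 6 h. The 3 first-generation libraries were the lowest in TPM, again without a count of all genes that show this. They were not the lowest in CPM, where the 0.2 Gy libraries of 1 and 2.5 h, at 231 and 236 CPM, were below them. The gene overlaps Dek and Tpmt on the opposite strand and shares 8.58% of its 30-base stretches with Dek, and the labels do not say that the libraries kept the strand.

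In TPM Tet2 was above Tet1 in 9 of 13 libraries, and Tet3 was below Tet1 in 13 of 13. In CPM Tet2, with a median of 87.5 CPM, was above Tet1 in 13 of 13. Tet2 was between 6.51 and 17.0 TPM and was highest at 2.5 h of 0.2 Gy. Tet1 was between 5.01 and 12.7 TPM and was highest at 0 h of 0.2 Gy. Tet3 was between 2.12 and 4.66 TPM, with its lowest values at 0 and 1 h and its highest at 6 h, all of them at 0.2 Gy. The long transcript Tet3-202, of 10904 bases, held 80.5% of the TPM of Tet3. Short transcripts weighed on the other pair, since Tet2-205 (423 bases) held 44.6% of the TPM and 2.77% of the estimated counts of Tet2, and Tet1-207 (414 bases) held 35.8% and 3.24% for Tet1. On the CPM scale Tet3, with a median of 82.1 CPM, was above Tet1, with 54.0 CPM, which is the reverse of their order per length.

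None of the 10 genes was detectably different between late and early libraries of 0.5 Gy. This comparison set the libraries of 2.5, 4 and 6 h against those of 0 and 1 h, 4 on each side, and asks whether methylation genes move with the response to the higher dose. A call needed both a change of over 1 on the log2 scale, in either direction, and an adjusted p under 0.05. By edgeR's quasi-likelihood test 0 of the 10 were called and DESeq2 called 0, where 0.128% of the 22588 genes tested were called. An unadjusted p under 0.05 was reached by 0 of the 10 and by 2046 of all genes. The late and early CPM overlapped for all 10, and did not overlap for 5.22% of all genes. The log2 fold change was 0.01 ± 0.20 (SE) for Dnmt1, -0.08 ± 0.15 for Dnmt3a, 0.26 ± 0.26 for Dnmt3b, -0.17 ± 0.14 for Uhrf1 and -0.91 ± 0.95 for Dnmt3l. It was 0.14 ± 0.18 for Tet1, -0.25 ± 0.15 for Tet2, -0.04 ± 0.16 for Tet3, -0.21 ± 0.21 for Dppa3 and -0.04 ± 0.17 for Kdm1b. The smallest adjusted p was 0.644, for Tet2. The sign for Dnmt1, Dnmt3a, Tet2, Tet3 and Kdm1b turned under at least 1 alternative. For Dnmt1 the 95% interval of the fold ran from 0.738 to 1.36, for Dnmt3a from 0.754 to 1.18, for Tet2 from 0.672 to 1.05 and for Dppa3 from 0.629 to 1.20. For Dnmt3l it ran from 0.126 to 2.25. The median log2 fold change was -0.06 over the 10 genes and -0.02 over all genes tested. Each side pools several time points, so its libraries are not replicates of a condition. The early side held as many first-generation as second-generation libraries, while the late side held mostly second-generation ones. This fit had no term for generation, so its values mix time with generation. The red blood cell markers summed to between 3076 and 4665 TPM in the early and 4039 and 8219 TPM in the late libraries, and the granulosa markers to between 681 and 1031 TPM and between 788 and 1204 TPM. Their part in these values was not tested.

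Single time points gave no call either. Against 0 h at 0.5 Gy, edgeR called 0 of the 10 genes at 1, 2.5, 4 or 6 h, where 0% of 28468 genes were called at each time, and DESeq2 with its beta prior called 0 of the 10 as well. An unadjusted p under 0.05 was reached by 1 gene, Dnmt3l at 2.5 h, the library in which it had no read, with an adjusted p of 0.875. Over all genes 1133, 1590, 1658 and 1691 reached it in order of time. At 2.5 and 6 h the 1 library each was assumed to vary like the duplicates of the other times. Both were of the second generation, while 0 h held the first and the second, so these comparisons mix time with generation. Dppa3 had 3183 CPM at 0 h in the first generation and 2031 CPM in the second. In the second it had 2857 CPM at 2.5 h and 1791 CPM at 6 h. In order of time, the log2 fold changes of Dppa3 were 0.26 ± 0.29 (SE), 0.13 ± 0.35, 0.06 ± 0.29 and -0.52 ± 0.36. For Dnmt1 the values were -0.04 ± 0.32, -0.24 ± 0.40, -0.07 ± 0.32 and 0.36 ± 0.39. None of these values passed the test against the spread between replicates.

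**Figure D3:**
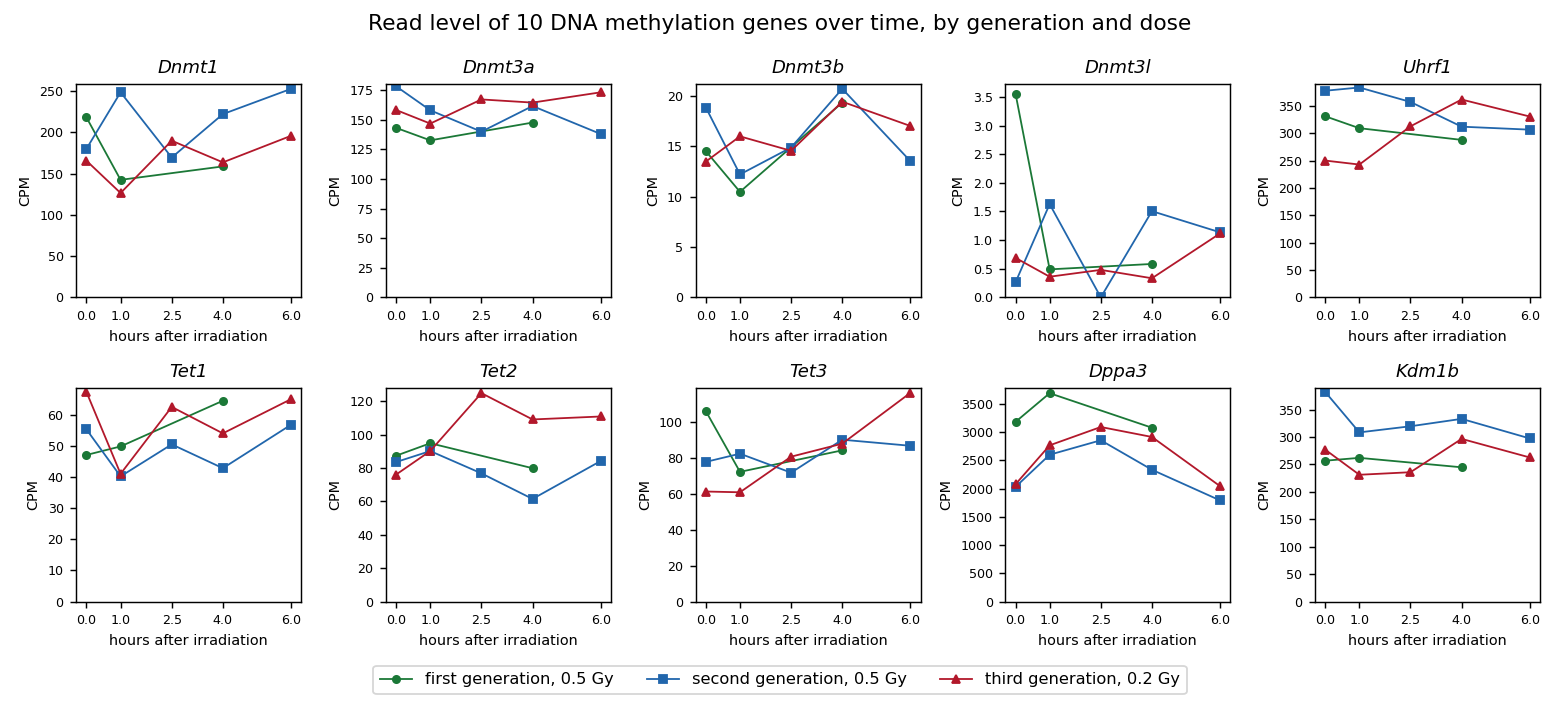
Read level of each gene in CPM (normalised with TMM) against hours after irradiation, with 1 line for each generation, the first of which has libraries at 0, 1 and 4 h. Dppa3 has its highest value at 2.5 h in the second and the third generation, with 2857 and 3092 CPM in 1 library each. How many of all genes do so was not counted.

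At 0.2 Gy the late libraries tended to lie higher, without a call. Here late means 4 and 6 h and early means 0 and 1 h, and the model held 11 libraries from both doses, which gave an estimate of spread that single libraries lack. By edgeR 0 of the 10 genes were called and by DESeq2 0, against 0.0462% of 28162 genes. An unadjusted p under 0.05 was reached by 2 of the 10 and by 2054 of all genes. The pair was Tet3, with 61.1 and 60.7 CPM early and 87.7 and 116 CPM late, and Uhrf1, with 250 and 243 CPM early and 362 and 331 CPM late. Their late libraries were all above the early ones, as were those of Dnmt3a, Dnmt3b and Tet2. How many of all genes separate in this way was not counted, so the separation was not read further. The log2 fold change was 0.71 ± 0.22 (SE) for Tet3 and 0.46 ± 0.17 for Uhrf1, with adjusted p of 0.574 and 0.646. The 95% interval of the fold ran from 1.18 to 2.28 and from 1.06 to 1.78. All 10 log2 fold changes were above 0, from 0.01 for Dppa3 to 0.71, with a median of 0.28. Over all genes 13440 of 28162 were above 0, with a median of -0.03. A wider list of 51 genes of DNA methylation, described below, had 39 above 0 and a median of 0.21. Other genes of like level were not compared. Without the 0 h library of 0.2 Gy 9 of the 10 were above 0, with a median of 0.42. Without the 1 h library of 0.2 Gy 8 were above 0, with a median of 0.16. The 2 early libraries are those with the largest number of transcripts above 0, and whether this moved the values was not tested. The oocyte markers summed to 1486 and 1697 TPM early and to 1570 and 2142 TPM late.

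Whether the doses differed in this respect was tested in the same fit, as the difference between the late-against-early changes at 0.2 and 0.5 Gy. No gene of the 10 was called by edgeR or DESeq2, where edgeR called 0.032% of the 28162 genes. An unadjusted p under 0.05 was reached by 3 of the 10 and by 2291 of all genes. The late-against-early change of Uhrf1 was higher at 0.2 Gy than at 0.5 Gy by 0.69 ± 0.22 (SE) on the log2 scale. That of Tet3 was higher by 0.69 ± 0.28 and that of Tet2 by 0.63 ± 0.25. The adjusted p were 0.535, 0.568 and 0.566. Uhrf1 had 310 to 384 CPM in the 0.5 Gy libraries of 0 and 1 h and 288 to 312 CPM at 4 and 6 h. At 0.2 Gy it had 250 and 243 CPM early and 362 and 331 CPM late. Tet2 had 83.6 to 94.9 CPM in the 0.5 Gy libraries of 0 and 1 h and 61.5 to 84.3 CPM at 4 and 6 h. At 0.2 Gy it had 76.2 and 90.3 CPM early and 109 and 111 CPM late. Dose and generation cannot be told apart in this comparison.

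Dppa3 was lower and Kdm1b higher in the second generation than in the first, in each case without a call. Second-generation libraries were compared with first-generation libraries of 0.5 Gy at 0, 1 and 4 h, 3 against 3, with time in the model. By edgeR and DESeq2 0 of the 10 genes were called, against 0.0324% of 24665 genes by edgeR, and an unadjusted p under 0.05 was reached by 2 of the 10 and 2438 of all genes. Dppa3 had 3183, 3691 and 3079 CPM in the first generation and 2031, 2601 and 2334 CPM in the second. Kdm1b had 257, 262 and 245 CPM in the first and 382, 308 and 333 CPM in the second. In neither gene did the generations overlap. The log2 fold change was -0.51 ± 0.14 (SE) for Dppa3 and 0.43 ± 0.16 for Kdm1b, with adjusted p of 0.361 and 0.475, and the 95% interval of the fold ran from 0.564 to 0.876 and from 1.03 to 1.75. With no filter on low counts the adjusted p of Dppa3 was 0.0145, with a log2 fold change of -0.52, short of the limit of 1. Dnmt3a did not overlap either, at 143, 133 and 148 CPM against 178, 158 and 162 CPM. Such a separation of 3 libraries from 3 was seen for 3 of the 10 genes and for 16.9% of all genes with a median of 10 reads or more. The oocyte markers summed to between 1623 and 1734 TPM in the first generation and to between 1745 and 2179 TPM in the second, and their part in the differences was not tested.

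The third generation, at 0.2 Gy, was compared with the second, at 0.5 Gy, over all 5 time points with time in the model. By edgeR and DESeq2 0 of the 10 genes were called, against 0.00355% of 28130 genes by edgeR, and an unadjusted p under 0.05 was reached by 2 of the 10 and 2921 of all genes. Kdm1b was lower in the third generation at 5 of 5 time points, with 231 to 296 CPM against 297 to 382 CPM and a log2 fold change of -0.31 ± 0.11 (SE). Tet2 was higher at 4 of 5, with 76.2 to 125 CPM against 61.5 to 90.2 CPM and 0.39 ± 0.17. The adjusted p were 0.425 and 0.475. The ranges of Kdm1b were less than 1 CPM apart, and such a separation was seen for 1 of the 10 genes and 3.17% of all genes with a median of 10 reads or more. Tet1 and Dppa3 were higher in the third generation at 5 of 5 time points, with log2 fold changes of 0.26 ± 0.13 and 0.18 ± 0.09 and adjusted p of 0.499 and 0.505.

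**Figure D4:**
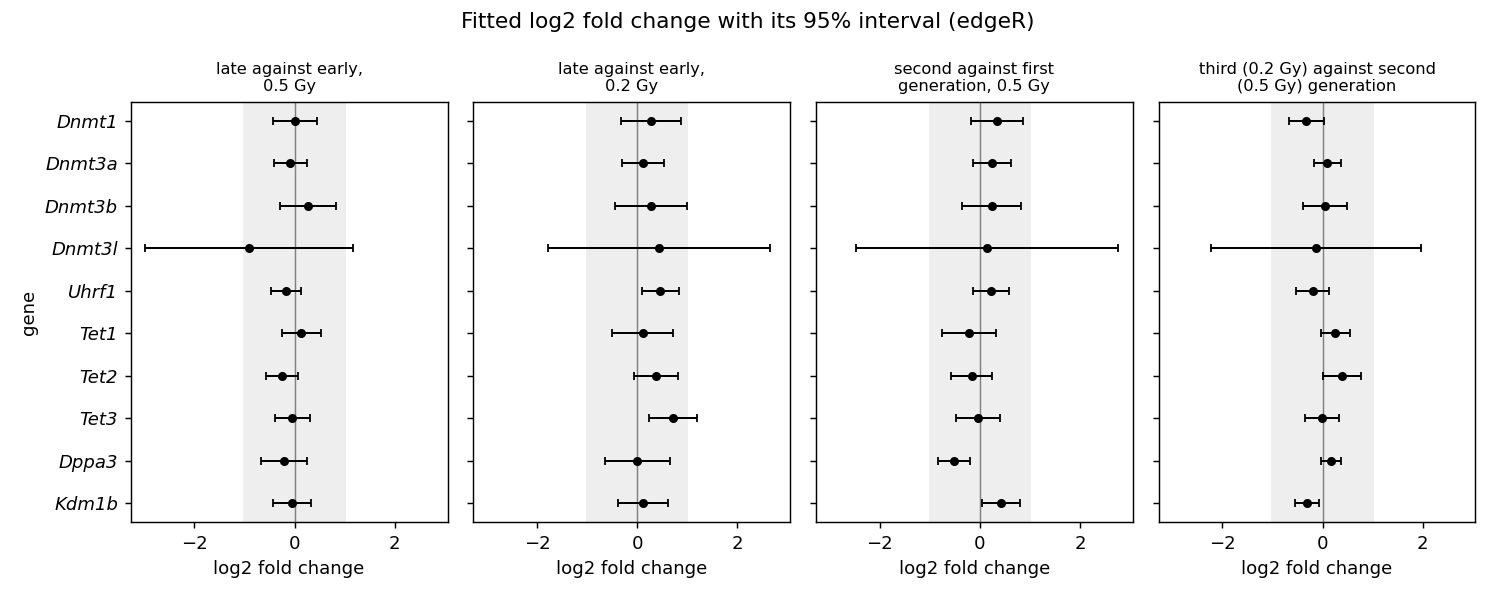
Log2 fold change of each gene (points) with its 95% interval (bars) from edgeR in 4 comparisons, where the grey band marks changes under the limit of 1. All 10 points lie within the band in each panel, and the intervals of Dnmt3l are the widest, from -2.98 to 1.17 for late against early at 0.5 Gy.

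Transcripts were tested in the same way. Late against early at 0.5 Gy, edgeR called 0 of the 45 transcripts of these genes that passed the filter and DESeq2 called 0, where edgeR called 0% of 56680 transcripts. Of the 45, 1 had an unadjusted p under 0.05, as did 3050 of all transcripts. The 1 was Kdm1b-202, a noncoding processed transcript, at -0.74 ± 0.27 (SE) on the log2 scale with an adjusted p of 0.919. Dnmt1-202, the oocyte form, was at 0.38 ± 0.30 and Dnmt1-201 at -0.30 ± 0.20. Between the third and the second generation, edgeR called 0 of 55 transcripts, with 0.0013% of 77107 called, and an unadjusted p under 0.05 was reached by 6 of the 55 and 4913 of all transcripts. Among them Dnmt3a-203 was at -0.93 ± 0.26, Dnmt3a-201 at 0.48 ± 0.17 and Dnmt1-202 at -0.57 ± 0.16, with an adjusted p of 0.779 for all of them. DESeq2 called 0 there too, and its adjusted p was 0.0266 for Dnmt3a-203 and 0.0328 for Dnmt1-202, both with log2 fold changes short of the limit.

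The second generation was also compared with the first by transcript, a test added after the values were seen. By edgeR 0 of 52 transcripts of these genes were called and 0% of 65211 in all. An unadjusted p under 0.05 was reached by 11 of the 52 and by 4367 of all transcripts, and the smallest adjusted p was 0.743. DESeq2 called 3 of them and 1676 in all. Among the 3 were Kdm1b-205 and Kdm1b-203, with log2 fold changes of 2.70 ± 0.65 and 2.75 ± 0.74 (SE) and adjusted p of 0.00274 and 0.00996. The other was Dnmt3b-202, one of the forms with no stretch of their own. Kdm1b-205 is a coding transcript of 736 bases that begins near the gene's own start and had 0.445, 3.07 and 1.26 TPM in the first generation. It had 8.14, 8.52 and 8.91 TPM in the second generation at the same times, and between 5.54 and 9.65 TPM in the third. Kdm1b-203, a retained intron, had 0.277, 0.869 and 1.45 TPM against 8.23, 4.16 and 4.55 TPM, and between 2.91 and 4.69 TPM in the third generation. The full-length Kdm1b-201, with 2478 coding bases, had 3.24, 4.67 and 3.91 TPM against 7.18, 6.89 and 6.53 TPM. Kdm1b-202 had 9.39, 8.88 and 8.09 TPM in the first generation and 14.5, 6.91 and 6.00 TPM in the second, so its ranges overlapped.

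**Figure D5:**
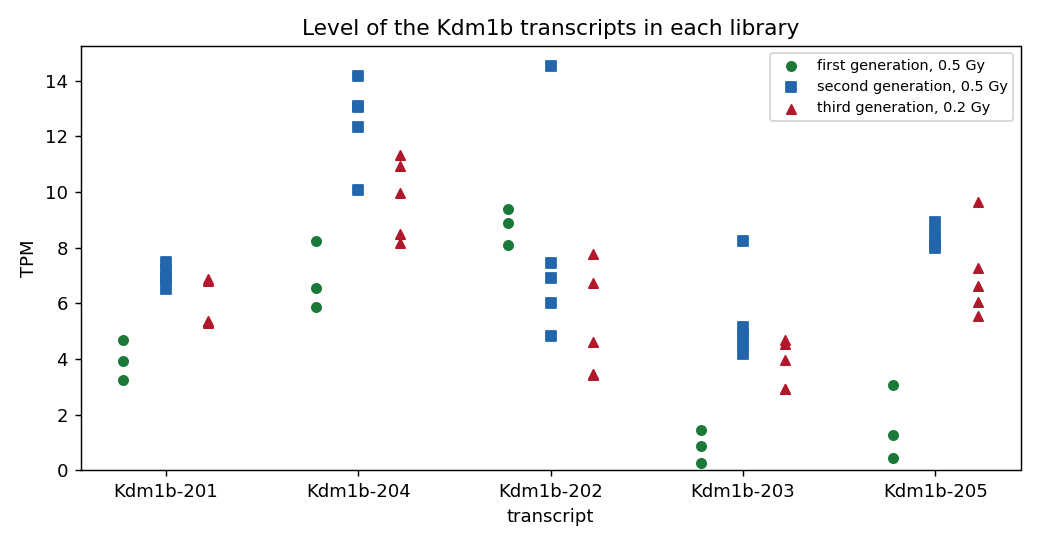
TPM of the 5 annotated transcripts of Kdm1b in each library, by generation and dose. The first-generation libraries are the 3 lowest for Kdm1b-201, Kdm1b-203 and Kdm1b-205, and for the last of these they lie at or below 3.07 TPM. How many of all transcripts separate in this way was not counted.

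A wider list of 51 genes of DNA methylation, which holds partners, readers, repair enzymes and methyl donors, was described beside the 10. Late against early at 0.5 Gy, edgeR gave 0 calls among the 51 genes, 26 log2 fold changes above 0 and 25 below, with a median of 0.02. Of them 2 had an unadjusted p under 0.05, as did 2046 of the 22588 genes. Pcna, the replication clamp, had the second smallest p of the list, at -0.34 ± 0.15 (SE) with an adjusted p of 0.529. At 0.2 Gy 39 of the 51 were above 0, where 13440 of the 28162 genes were. Among the 51 there were 0 calls, 4 under an unadjusted p of 0.05 (2054 of the 28162 genes) and a median of 0.21. The smallest p belonged to the Polycomb subunit Eed, at 0.75 ± 0.21, and to the imprint guardian Zfp57, at 0.48 ± 0.17, with adjusted p of 0.515 and 0.642. In the difference between doses 37 of 51 were above 0, with 0 calls, 8 under an unadjusted p of 0.05 (2291 of the 28162 genes) and a median of 0.17. The chromatin remodeller Hells was at 0.84 ± 0.27 and the Polycomb subunit Suz12 at 1.00 ± 0.31, with adjusted p of 0.543 and 0.525.

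Between generations the wider list gave 0 calls as well. Second against first, 29 of 51 were above 0, 3 had an unadjusted p under 0.05 (2438 of the 24665 genes) and the median was 0.05. The glycosylase Tdg, which removes oxidised methylcytosine, was at 0.69 ± 0.21 (SE) and the corepressor Trim28 at -0.54 ± 0.19, with adjusted p of 0.416 and 0.456. In the third generation against the second, 38 of 51 were below 0, 8 had an unadjusted p under 0.05 (2921 of the 28130 genes) and the median was -0.11, beside 0.04 over all genes. Idh2, which makes the Tet cofactor 2-oxoglutarate, was at -0.48 ± 0.11 and Ahcy, which clears the product of methyl transfer, at 1.20 ± 0.32, with adjusted p of 0.307 and 0.371. Against 0 h at 0.5 Gy 0 of the 51 were called and 0 had an unadjusted p under 0.05 at any time. At 1 h the smallest p belonged to Zfp445 (log2 fold change -0.61 ± 0.28) and Ehmt2 (0.67 ± 0.33). At 2.5 h they were those of Xrcc1 (0.91 ± 0.42) and Dmap1 (0.64 ± 0.31). Zfp445 (-0.55 ± 0.28) was named at 4 h, and Uhrf2 (-0.75 ± 0.36) and Ahcy (-1.79 ± 0.96) at 6 h. 

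The genes whose log2 CPM ran most like those of each member were searched among protein-coding genes with a mean of at least 5 CPM. The correlations are over 13 libraries that share time points, generations and cell makeup, and are given as a description. For Dppa3 the closest were Figla, an oocyte transcription factor, with r = 0.94, and Srp14 with 0.92. They were Clpx (0.93) and Lrrn1 (0.91) for Kdm1b, Matr3 (0.89) and Pla2g4c (0.87) for Dnmt1, and Rundc3b (0.90) and Golga7 (0.88) for Uhrf1. They were Tpp2 (0.89) and Kif18a (0.88) for Dnmt3a, and 4931428F04Rik (0.88) and Ckap2l (0.82) for Dnmt3b. For the Tet genes they were Tsc2 (0.92) and Sp110 (0.92) with Tet3, Nf1 (0.89) and Prrc2c (0.88) with Tet2, and Sall2 (0.86) and Sgk1 (0.75) with Tet1. Fbxw16 and Gpr35 (both 0.88) came out for Dnmt3l, whose counts were too few for the pattern to be read. Among the 10 genes themselves the highest r was 0.62, between Uhrf1 and Kdm1b, and the lowest was -0.48, between Dppa3 and Kdm1b.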

How the data were processed

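RNA of oocytes from cultured P5 ovaries was sequenced as 30-base paired-end reads. Per the labels and the methods, the authors quantified each of the 13 libraries with salmon against Ensembl transcripts of GRCm38, and the deposited files give, for each of 130740 transcripts, an estimated count of reads and a TPM value (a transcript level normalised for length and depth). Tables of the authors' own comparisons, which hold fold changes, p-values and merged values, were not used.

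Estimated counts were summed by gene and rounded to whole numbers, and TPM were summed by gene. The 402 transcripts without a gene in the annotation held between 0.318% and 0.495% of a library's reads and were left out. The deposited libraries held between 15709549 and 30430104 estimated reads. The files give no measure of the uncertainty in assigning reads to transcripts.

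Genes and transcripts were tested with edgeR 4.0.16 (quasi-likelihood test, TMM normalisation, filterByExpr) in R 4.3.3, over all features and with Benjamini-Hochberg adjustment. A call needed a log2 change of over 1 in either direction and an adjusted p under 0.05. The alternatives were DESeq2 1.42.0, DESeq2 size factors, no filter on low counts, no fold limit, generation as a block, leaving out each library, and limma 3.58.1 on log2(TPM + 1) and log2(TPM + 0.1). DESeq2 was run with the beta prior for single time points and without it elsewhere. The main script was tested on simulated data.

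The 10 genes, the wider list and the lists of markers were chosen with earlier results of these data known. All 10 genes were named in each comparison, with their transcripts that held at least 10% of the summed TPM. Of the wider list, the 2 genes with the smallest p in each comparison were named, apart from results of the list that are not reported here, and for each of the 10 genes the 2 protein-coding genes with the highest Pearson correlation of log2 CPM. Sequences were read from RefSeq promoter stretches of GRCm38.p6, which were given for 9 of the 10 genes.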

Additional observations from a re-analysis of the deposited data

How the results depend on the processing

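No gene of the 10 was called under any alternative that was run. limma was run late against early at 0.5 Gy alone, and the block in no comparison of generations. By transcript the same held, except that DESeq2 called 3 transcripts in the second generation against the first, where edgeR called 0. The sign of small changes late against early at 0.5 Gy was not stable, and none of these values passed the test. Without the filter Tet3 was at 0.0076 and Kdm1b at 0.013 (log2), and with limma on log2(TPM + 1) and log2(TPM + 0.1) Dnmt1 was at -0.15 and -0.15, Tet2 at 0.094 and 0.11, and Kdm1b at 0.17 and 0.18. Leaving out 1 library gave a range from -0.12 to 0.14 for Dnmt1, -0.15 to 0.021 for Dnmt3a, -0.11 to 0.089 for Tet3 and -0.11 to 0.11 for Kdm1b. By TPM of protein-coding transcripts Uhrf1 ranked 2, Kdm1b 3, Dnmt3a 4 and Dnmt1 5, and by CPM Uhrf1 ranked 2, Kdm1b 3, Dnmt1 4, Tet3 7 and Tet1 8.

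Same-numbered libraries of 0.5 Gy correlated in their deviations from the time means at 0.163, 0.0969 and 0.138, so the number was not treated as a pairing. With generation as a replicate block no gene of the 10 was called, Dnmt1 late against early was at -0.066, and 18 genes in all were called in place of 29. In the blocked fit 0, 1, 6 and 7 genes were called at 1, 2.5, 4 and 6 h, 15 at 0.2 Gy and 13 in the difference between doses.

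Counts over all genes moved more. Late against early at 0.5 Gy, 29 calls became 58 without the filter, 203 with DESeq2, 5 and 12 with limma and 10 to 37 without 1 library. Against 0 h, 0 calls became 30, 56, 80 and 78 without the filter and 22, 87, 123 and 146 with DESeq2. Without the filter and with DESeq2, the 13 calls at 0.2 Gy became 32 and 136, the 9 of the difference 22 and 114, the 8 of the second generation against the first 462 and 276, and the 1 of the third against the second 122 and 208. Leaving out 1 library gave 1 to 18 calls at 0.2 Gy (1 without its 1 h library), 0 to 13 in the difference (0 without 0 h of 0.2 Gy), 47 to 164 for the second generation against the first and 1 to 22 for the third against the second. Against 0 h it gave 0 to 4, 0 to 7, 0 to 10 and 0 to 6, each highest without the first 0 h library of 0.5 Gy. By transcript DESeq2 called 273 late against early, 1215 between the third and second generations and 1676 between the second and first. The cause was not tested. The single libraries at 2.5 and 6 h and at 0.2 Gy limit what can be detected, as do the few reads of Dnmt3l.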
